A study of Mus musculus with 17 samples.

Results

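The 37 genes described here encode the contractile apparatus, the calcium store, the energy enzymes and the hormones of heart and other striated muscle, measured in whole mouse lung. They were listed by name, and each was read from its probe set with a single gene symbol, or from the brightest over all arrays where a gene had several. All 37 were found among the 19751 genes of the arrays. The only measured value in that rule is brightness over all 17 arrays, but the list was drawn up with earlier results of these mice known, so its counts are descriptions and support nothing by themselves.

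Striated muscle contracts when calcium, released from the sarcoplasmic reticulum through the ryanodine receptor, binds troponin and lets myosin heads pull on actin within the sarcomere. Atrial and ventricular muscle carry different myosin light chains, and heart and skeletal muscle use tissue-specific forms of creatine kinase and of cytochrome oxidase subunits. In mice and rats a sleeve of heart muscle, continuous with the left atrium, wraps the larger pulmonary veins inside the lung, so these transcripts are part of normal rodent lung RNA.

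The 17 Balb/c mice fell into 3 groups, with 1 array per mouse. The anti-RGMb group (6 mice) was sensitized and challenged with ovalbumin, an egg protein used as allergen, and received a monoclonal antibody to RGMb, which binds neogenin and acts beside the receptors of bone morphogenetic proteins. The isotype group (5 mice) had the same ovalbumin exposure with an isotype control antibody. The saline group (6 mice) was sensitized and challenged with saline, and the labels name no antibody for it. No group received anti-RGMb without ovalbumin, so what the antibody does to unexposed and to exposed lung cannot be told apart. Effects of ovalbumin and of the isotype antibody likewise cannot be told apart in isotype mice. The question posed by the series is what blocking the hub of neogenin, RGMb and bone morphogenetic proteins does to allergic airways. The design text speaks of a first and a second replicate and gives the number of mice of each group in both, and these are called experiment 1 and experiment 2 here. No label states which mouse belongs to which. The mice with -2 after their number in the title were taken as the second, which matches the stated group sizes. Experiment 1 held 3 mice of each group, numbered 1, 2 and 3. Experiment 2 held 3 anti-RGMb, 2 isotype and 3 saline mice, numbered 1-2, 2-2 and 3-2.

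Values are linear intensities, and the median of an array was 120.5 to 124.8 in experiment 1 and 362.1 to 386.2 in experiment 2, so levels are compared only within an experiment. The lowest correlation between arrays across genes was 0.975 in experiment 1 and 0.968 in experiment 2. The lung marker Sftpc, surfactant protein C of alveolar type 2 cells, averaged 13.71 on the log2 scale over all arrays and did not differ between anti-RGMb and isotype mice beyond the test (adjusted p = 0.476). Signal rather than depth limits precision on arrays. By the median over a group's arrays, 2 listed genes in anti-RGMb mice, 8 in isotype mice and 1 in saline mice lay in the dimmest 25% of all genes. Ranks were taken within each array and pooled over both experiments. Isotype arrays numbered 3 and 2 in the experiments and those of the other groups 3 and 3, so these counts do not compare the groups evenly.

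Promoters of 3 of the 6 listed genes with a CArG box, the binding motif of serum response factor, are shown. Myl7 and Actc1 rose in anti-RGMb against isotype mice, and all of Myl7, Actc1 and Myl3 were lower in isotype than in saline mice. Not shown are Fhl2 (nearest box at -31 to -22 from an annotated start), Ldb3 (-35 to -26) and Myom1 (-99 to -90). Fhl2 and Ldb3 passed in neither of these comparisons, and Myom1 passed in both. A link between the box and the differences was not tested. Each window runs from 250 bases before to 50 bases after the RefSeq start in build GRCm38.p6 and is written 5′ to 3′ on the gene's strand. Capitals mark matches to the CArG box, to CATTCC (the MCAT element), to GATAA and to TATAAA on either strand. The windows are chr11:5898733-5899032 (minus strand) for Myl7, chr2:114052826-114053125 (minus strand) for Actc1 and chr9:110763428-110763727 (plus strand) for Myl3.
Myl7: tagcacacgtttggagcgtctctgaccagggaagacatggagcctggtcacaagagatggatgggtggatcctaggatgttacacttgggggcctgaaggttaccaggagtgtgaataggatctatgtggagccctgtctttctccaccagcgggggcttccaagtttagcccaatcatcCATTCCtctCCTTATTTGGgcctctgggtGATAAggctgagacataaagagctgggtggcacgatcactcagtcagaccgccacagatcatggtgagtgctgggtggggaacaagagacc
Actc1: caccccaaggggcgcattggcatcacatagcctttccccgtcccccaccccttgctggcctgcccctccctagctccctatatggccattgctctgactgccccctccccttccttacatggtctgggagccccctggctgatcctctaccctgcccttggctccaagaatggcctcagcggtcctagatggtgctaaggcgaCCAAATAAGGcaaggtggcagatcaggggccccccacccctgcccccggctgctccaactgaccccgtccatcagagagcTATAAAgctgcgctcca
Myl3: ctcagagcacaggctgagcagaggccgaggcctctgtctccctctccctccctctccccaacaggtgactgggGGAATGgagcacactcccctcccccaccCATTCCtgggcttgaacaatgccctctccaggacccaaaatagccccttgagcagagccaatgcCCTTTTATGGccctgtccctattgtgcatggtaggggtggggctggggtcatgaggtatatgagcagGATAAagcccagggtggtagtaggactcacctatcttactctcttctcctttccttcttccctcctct

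The CArG box of Myl7 lies at -61 to -52 from the annotated start, that of Actc1 at -47 to -38 and that of Myl3 at -85 to -76. RefSeq windows were at hand for 32 of the 37 genes, with 39 windows in all. A CArG box stood in 20.5% of these windows (8 of 39, from 6 genes), against 1.63% of all 32851 windows of the same length. A MEF2 motif stood in 12.8%, against 3.19% of all windows. CATTCC stood in 25.6% against 14.7%, GATAA in 38.5% against 25.4%, CANNTG (the E box) in 89.7% against 72.3%, and TATAAA in 17.9% against 13.6%. These shares describe letters in the windows, and the binding of a factor was not measured.

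Several mice stood apart from their group over the whole list. After subtraction of the mean of each group and experiment, the mean of the 37 genes was higher by 0.68 log2 units in saline mouse 1, by 0.53 in saline mouse 2-2 and by 0.49 in isotype mouse 2. The mean level above the saline mean of the same experiment was 0.12, -0.25 and 0.50 in anti-RGMb mice 1, 2 and 3, and -0.51, -0.77 and -0.25 in anti-RGMb mice 1-2, 2-2 and 3-2. Isotype mice 1, 2 and 3 had -1.05, -0.30 and -1.03, and isotype mice 1-2 and 2-2 had -0.95 and -0.87. Saline mice 1, 2 and 3 had 0.68, -0.36 and -0.32, and saline mice 1-2, 2-2 and 3-2 had -0.31, 0.53 and -0.22. Isotype mice other than mouse 2 were the lowest of all mice. Anti-RGMb mice of experiment 1 and mouse 3-2 lay within the saline range of their experiment, and anti-RGMb mice 1-2 and 2-2 lay below it.

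**Figure D1:**
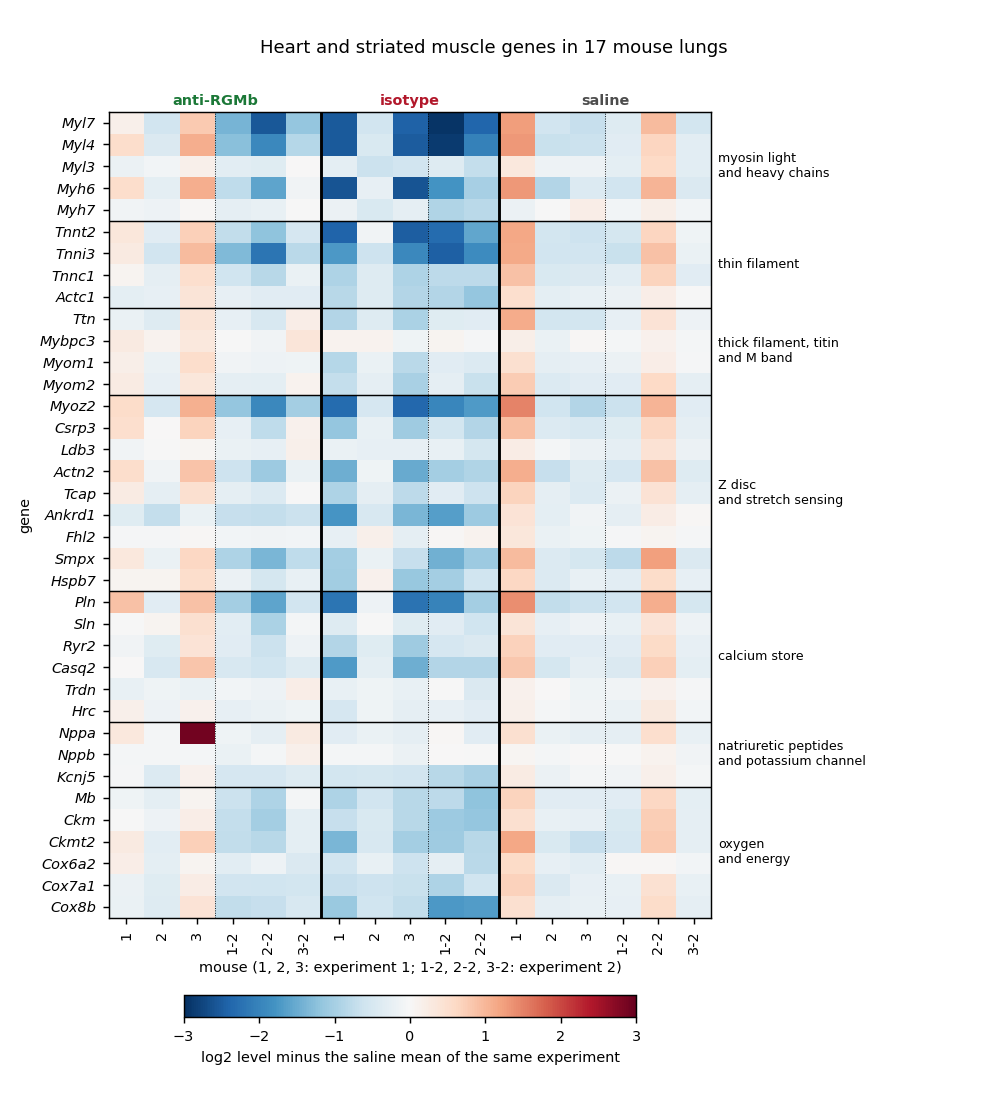
Heat map of the 37 genes (rows, grouped by role) in 17 mice (columns: anti-RGMb, isotype, saline, with a dotted line between experiments). Colour is the log2 level minus the saline mean of the same experiment. Isotype mouse 2 and saline mice 1 and 2-2 stand out from their groups over most rows, and Nppa of anti-RGMb mouse 3 lies at 2.9.

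Anti-RGMb mice were set against isotype mice to ask what the antibody did in ovalbumin-exposed lung. Of the 37 genes, 12 rose and 0 fell at an adjusted p under 0.05 (limma, Benjamini-Hochberg over all genes, 6 anti-RGMb and 5 isotype mice), while 11.1% of all genes tested were called higher and 1981 of 19751 lower. At an unadjusted p under 0.05 the count was 27 higher and 0 lower, against 3384 higher and 2876 lower of all 19751 genes. The genes that rose were Myl7, Myl4, Myh6, Myh7, Tnnt2, Actc1, Myom1, Csrp3, Ankrd1, Hspb7, Kcnj5 and Cox8b. The median log2 difference was 0.56, against 0.03 over all genes. The gene just inside the threshold was Myh6 (adjusted p = 0.0496) and the one just outside was Casq2 (adjusted p = 0.0526). Without anti-RGMb mouse 3, isotype mouse 1 or isotype mouse 3 the count was 7, and without saline mouse 2-2 it was 21. Myl4, Myh7, Tnnt2, Actc1, Ankrd1, Kcnj5 and Cox8b were called in each of the 17 fits that left out 1 mouse. Myl7, Myh6, Myom1, Csrp3 and Hspb7 lost their call in at least 1 of them. Without saline mice 1 and 2-2 and isotype mouse 2 together, 30 genes were higher. These mice were chosen after the data were seen, as the farthest from their group and experiment in the mean of the 37 genes. Leaving them out narrows the spread of the 37 genes by construction, so this count supports nothing by itself.

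Isotype mice were set against saline mice to ask what the ovalbumin regimen did under a control antibody. Of the 37 genes, 29 fell and 0 rose, while 21.0% of all genes were called lower and 14.6% higher. The median log2 difference was -0.76, against -0.04 over all genes. The 8 genes that did not pass were Ttn, Mybpc3, Ldb3, Fhl2, Sln, Trdn, Nppa and Nppb. Just inside the threshold lay Myom2 (adjusted p = 0.0464) and just outside Ldb3 (adjusted p = 0.0533). The count of lower genes was 16 without isotype mouse 1, 19 without saline mouse 1 and 18 without the 3 mice that stood apart. Of the 29 genes, 16 kept their call in all 17 fits that left out 1 mouse. The other 13 were Myh6, Tnnc1, Myom1, Myom2, Csrp3, Actn2, Tcap, Smpx, Hspb7, Pln, Ryr2, Hrc and Ckmt2, and each lost its call without isotype mouse 1, with adjusted p up to 0.129 over these fits. The comparison shares the isotype mice with the one before, so a level in isotype mice enters both.

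Anti-RGMb mice were set against saline mice for what remained of the difference under the antibody. None of the 37 genes passed by limma, while 4.26% of all genes were called higher and 2.24% lower. At an unadjusted p under 0.05, 2 of the 37 were lower and 0 higher, against 2220 lower and 1576 higher of all 19751 genes. The median log2 difference was -0.18, against -0.01 over all genes. The nearest to the threshold was Ankrd1 (-0.56 ± 0.18, SE, adjusted p = 0.0718). The 2 experiments differed in sign for most listed genes here, with the same sign in both for 15 of 37, against 12272 of all 19751 genes. In anti-RGMb against isotype mice the sign was the same for 35 of 37 (13465 of all genes). In isotype against saline mice it was the same for 36 of 37 (15163 of all genes). Myl7 differed by 0.13 in experiment 1 and by -1.71 in experiment 2, and Myl4 by 0.39 and -1.35. A count of 0 with intervals this wide does not show that the groups were alike: the 95% interval of Myl7 ran from -1.75 to 0.18. The comparison shares its mice with both others. Without saline mouse 2 the count of lower genes was 2 (Ankrd1 and Kcnj5). It was 1 without anti-RGMb mouse 3 (Kcnj5) and without isotype mouse 1 or isotype mouse 2 (Ankrd1). With the experiment as part of an interaction, 0 of the 37 genes differed between experiments in any of the 3 comparisons by limma. Of all genes, 0.471%, 0.668% and 0% did. At an unadjusted p under 0.05 the counts were 1, 2 and 2 of the 37 genes, against 2231, 1990 and 598 of all 19751 genes.

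Since whole lung was measured, fewer cells of a type and less RNA per cell cannot be told apart. Markers of other cell types moved with the groups. Many genes outside these lists did so too. In anti-RGMb against isotype mice 11.1% of all genes were called higher and 1981 of 19751 lower. In isotype against saline mice 14.6% were called higher and 21.0% lower. Counts of this and the later lists stand beside these shares, and a difference from them was not tested. Of 12 lung endothelium markers, 9 rose and 0 fell in anti-RGMb against isotype mice, and 11 fell and 1 rose (Vwf, named after its value was seen) in isotype against saline mice. Their summed intensity was 23008 to 26072 in anti-RGMb mice, 19404 to 23010 in isotype mice and 26379 to 28035 in saline mice of experiment 1. The brightest were Cdh5, Pecam1 and Car4, junction proteins and an enzyme of lung vessels. Cdh5 and Pecam1 rose by 0.33 and 0.26 in anti-RGMb against isotype mice (adjusted p = 0.00108 and 0.00274), while Car4 differed by 0.10 (adjusted p = 0.31). All 3 fell in isotype against saline mice, by 0.47, 0.34 and 0.18 on the log2 scale.

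Of 10 immune cell markers, 0 rose and 7 fell in anti-RGMb against isotype mice, and 9 rose and 0 fell in isotype against saline mice. Their summed intensity was 7798 to 8463 in anti-RGMb mice, 9928 to 11633 in isotype mice and 4463 to 4574 in saline mice of experiment 1. The brightest were Cd68 of macrophages, Ptprc of all white blood cells and Itgax of dendritic cells and alveolar macrophages. They fell by 0.54, 0.38 and 1.04 on the log2 scale in anti-RGMb against isotype mice and rose by 1.27, 0.88 and 2.13 in isotype against saline mice.

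Of 10 mesothelium markers, 5 rose in anti-RGMb against isotype mice and 5 fell in isotype against saline mice, with none in the opposite direction. Upk3b, Gpm6a, Msln and Nkain4 were called in both, Bnc1 in the first alone and Krt19 in the second alone, and Msln, Nkain4 and Bnc1 are named after their values were seen. The brightest were Krt19, Upk3b and Gpm6a, with 0.25 (adjusted p = 0.0595), 1.21 and 0.84 in anti-RGMb against isotype mice and -0.58, -1.37 and -0.90 in isotype against saline mice. Of 11 alveolar epithelium markers, 7 rose and 1 fell in anti-RGMb against isotype mice, and 1 rose and 7 fell in isotype against saline mice. The 1 gene against the rest was Sftpd in both, named after its value was seen. Of the brightest, Sftpb differed by 0.19 and -0.30 and was called in both, while Sftpc (0.05 and -0.08) and Sftpa1 (0.02 and 0.03) passed in neither. Of 3 erythroid markers measured, Alas2 and Slc4a1 rose by 0.50 and 0.67 in anti-RGMb against isotype mice and fell by 0.40 and 0.50 on the log2 scale in isotype against saline mice. By experiment, isotype against saline mice gave -0.06 in experiment 1 and -0.86 in experiment 2 for Alas2, and -0.05 and -1.08 for Slc4a1. The interaction with experiment did not pass for either gene (limma, adjusted p = 0.152 and 0.0671). The third, Epb42, differed by 0.19 and -0.20 and passed in neither. The part of these cell types in the differences of the muscle genes was not tested.

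**Figure D2:**
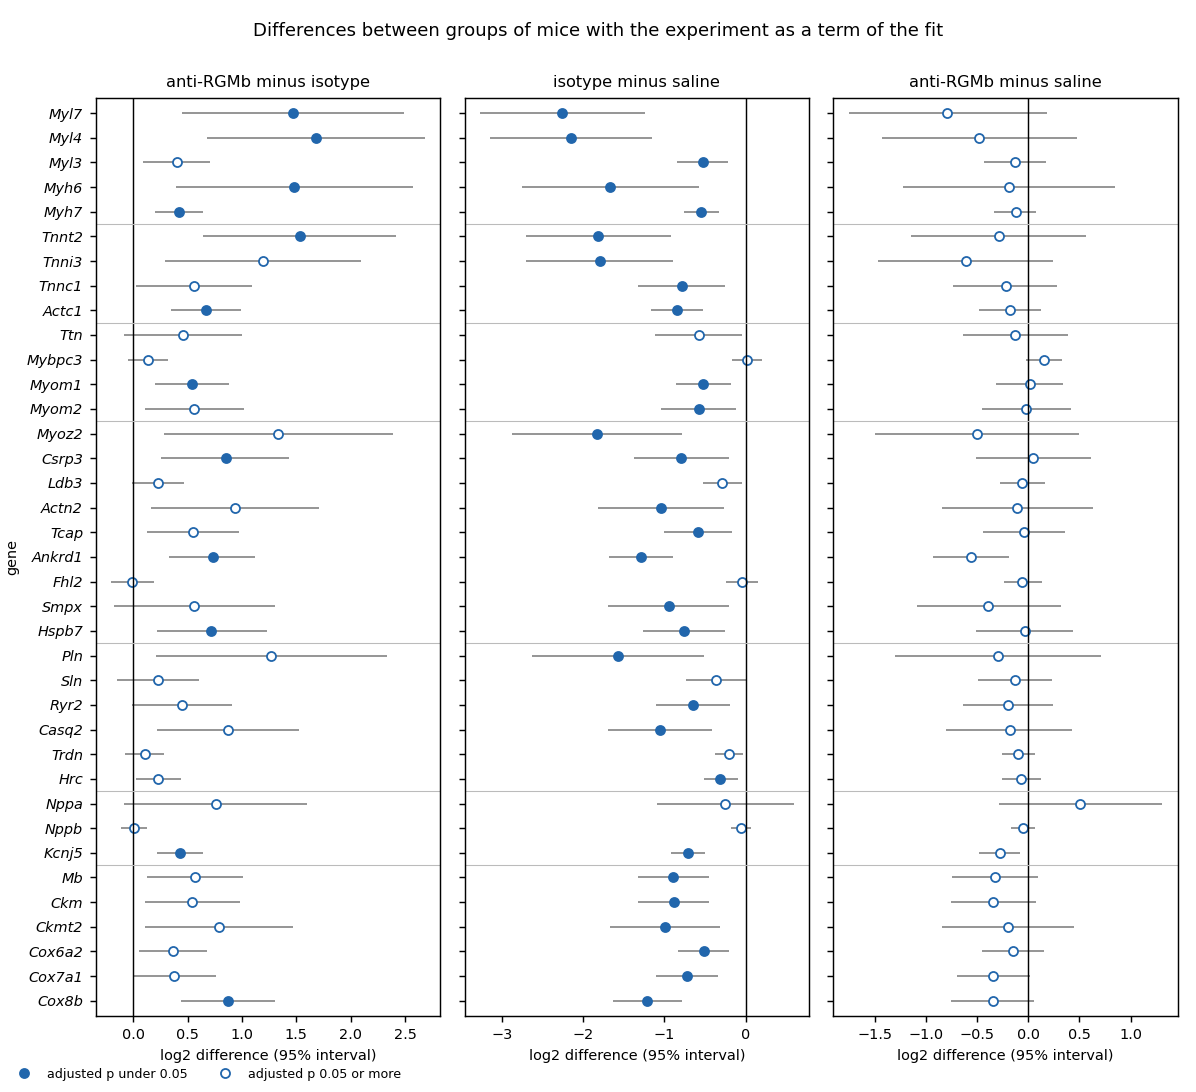
Log2 difference of each of the 37 genes with its 95% interval in 3 comparisons, anti-RGMb minus isotype, isotype minus saline and anti-RGMb minus saline. Filled circles have an adjusted p under 0.05 (12, 29 and 0 genes), and the horizontal scales differ between panels.

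Among the myosin chains, 4 of 5 rose in anti-RGMb against isotype mice and 5 of 5 fell in isotype against saline mice. Myl7, the regulatory light chain of atrial heart muscle, had intensities of 242, 145 and 375 in anti-RGMb mice, 37.4, 146 and 40.1 in isotype mice and 515, 146 and 134 in saline mice of experiment 1. In experiment 2 the values were 429, 194 and 504 in anti-RGMb mice, 148 and 218 in isotype mice and 867, 2171 and 774 in saline mice. Anti-RGMb and isotype mice overlapped in both experiments, through isotype mouse 2 and isotype mouse 2-2, while all saline mice of experiment 2 were above both other groups. Myl7 was 2.77-fold higher in anti-RGMb than in isotype mice (log2 difference 1.47 ± 0.48, SE, adjusted p = 0.037) and 4.78-fold lower in isotype than in saline mice (-2.26 ± 0.48, adjusted p = 0.00111). With 1 mouse left out, the anti-RGMb call was lost in 9 of 17 fits, with adjusted p up to 0.0944.

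Myl4, the essential light chain of atrial and embryonic muscle, had 720, 372 and 1076 in anti-RGMb mice, 87.4, 368 and 89.5 in isotype mice and 1250, 316 and 322 in saline mice of experiment 1. Experiment 2 gave 1374, 855 and 1824 in anti-RGMb mice, 444 and 809 in isotype mice and 2592, 5125 and 2649 in saline mice. Every anti-RGMb mouse was above every isotype mouse of its experiment, by little at the margin (372 against 368, and 855 against 809). The log2 difference was 1.68 ± 0.48 (SE, 3.2-fold, adjusted p = 0.0163) in anti-RGMb against isotype mice and -2.15 ± 0.48 (adjusted p = 0.00147) in isotype against saline mice. Groups without any overlap in either experiment, with anti-RGMb above isotype mice, were seen for 9 of the 37 genes and for 7.57% of all genes. The other 8 were Myl3, Myh7, Actc1, Myom1, Kcnj5, Ckm, Cox7a1 and Cox8b. Isotype mice lay below saline mice without overlap in either experiment for 12 of the 37 genes and for 15.1% of all genes.

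Myh6, the fast alpha heavy chain of the heart, averaged -0.19 ± 0.95 log2 units above the saline mean in anti-RGMb mice, -1.64 ± 1.02 in isotype mice and 0 with an SD of 0.92 in saline mice (SD, n = 6, 5 and 6). Its rise in anti-RGMb mice was 1.48 ± 0.52 (SE, adjusted p = 0.0496), lost in 11 of 17 fits without 1 mouse. Myh7, the slow beta heavy chain, behaved differently in spread. It had 479, 469 and 532 in anti-RGMb mice, 457, 377 and 431 in isotype mice and 458, 515 and 590 in saline mice of experiment 1. In experiment 2 it had 888, 924 and 1068 in anti-RGMb mice, 576 and 614 in isotype mice and 1014, 1216 and 1025 in saline mice. The isotype mice were the lowest in both experiments without overlap, and the gap was wider in experiment 2. Myh7 rose by 0.42 ± 0.10 (adjusted p = 0.00648) in anti-RGMb against isotype mice and fell by 0.55 on the log2 scale in isotype against saline mice (adjusted p = 0.000371). Myl3, the ventricular and slow-muscle light chain, differed by 0.40 ± 0.15 in anti-RGMb against isotype mice (adjusted p = 0.0645) and fell by 0.53 on the log2 scale in isotype mice (adjusted p = 0.00866).

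**Figure D3:**
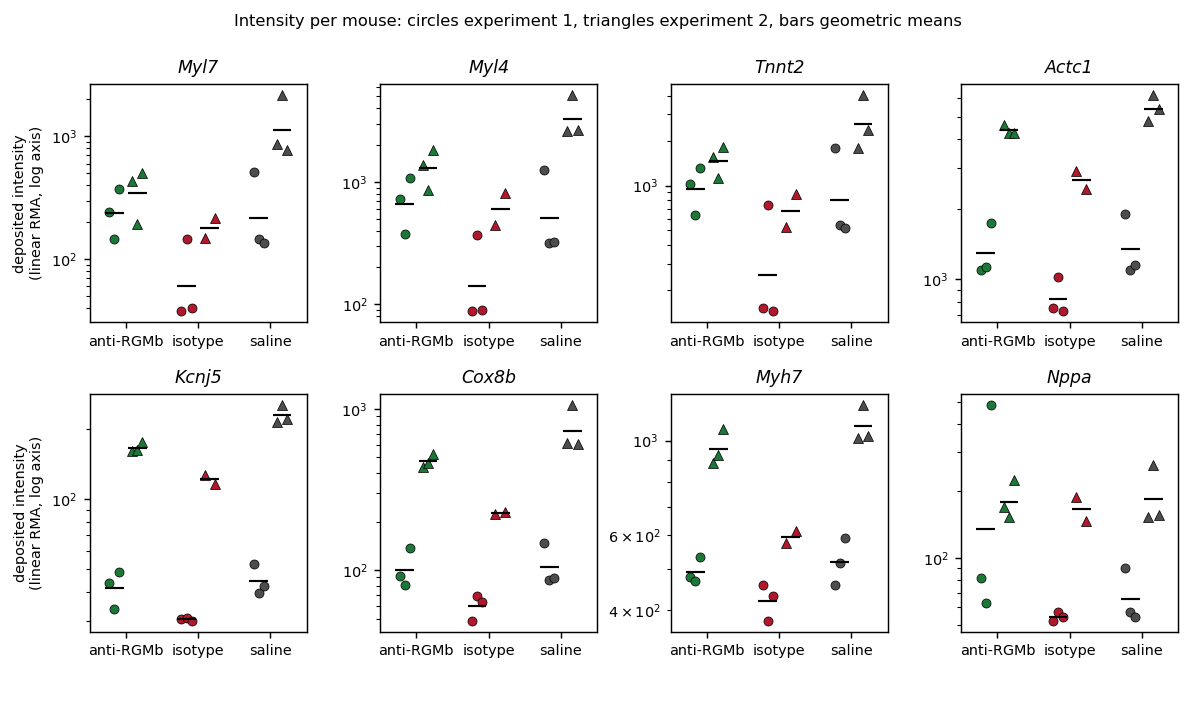
Deposited intensity per mouse (logarithmic axis) of 8 listed genes in anti-RGMb, isotype and saline mice. Circles are mice of experiment 1, triangles mice of experiment 2, and bars geometric means. For Kcnj5 and Cox8b the isotype mice lie below all others of their experiment, while for Myl7 isotype mouse 2 lies at 146, as high as saline mouse 2.

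Among the thin filament genes, 2 of 4 rose in anti-RGMb against isotype mice and all 4 fell in isotype against saline mice. Tnnt2, the heart form of troponin T that ties troponin to tropomyosin, had 1018, 632 and 1304 in anti-RGMb mice, 150, 738 and 143 in isotype mice and 1782, 545 and 523 in saline mice of experiment 1. The mice of experiment 2 had 1544, 1119 and 1814 in anti-RGMb mice, 524 and 877 in isotype mice and 1791, 4043 and 2368 in saline mice. Isotype mouse 2 overlapped the anti-RGMb mice of experiment 1, and in experiment 2 these groups did not overlap. The differences were 1.53 ± 0.42 (SE, adjusted p = 0.0142) in anti-RGMb against isotype mice and -1.82 ± 0.42 (adjusted p = 0.00232) in isotype against saline mice.

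Actc1, cardiac alpha actin, had 1098, 1133 and 1753 in anti-RGMb mice, 756, 1024 and 728 in isotype mice and 1916, 1096 and 1158 in saline mice of experiment 1. In experiment 2 Actc1 had 4604, 4279 and 4248 in anti-RGMb mice, 2928 and 2442 in isotype mice and 4789, 6199 and 5383 in saline mice. The isotype mice were lowest in both experiments. Actc1 rose by 0.67 ± 0.15 (SE, 1.59-fold, adjusted p = 0.00383) in anti-RGMb mice, and it was 1.8-fold lower in isotype than in saline mice (-0.85 ± 0.15, adjusted p = 0.000214). Its CArG box and TATAAA are those shown above, and the TATAAA lies at 33 to 38, after the annotated start. Tnni3, the heart form of the inhibitory troponin I, differed by 1.19 ± 0.43 in anti-RGMb against isotype mice (adjusted p = 0.0569) and by -1.80 ± 0.43 in isotype against saline mice (adjusted p = 0.00265). Tnnc1, the calcium-binding troponin C of heart and slow muscle, differed by 0.56 ± 0.25 (adjusted p = 0.131) and -0.79 ± 0.25 (adjusted p = 0.0204) in the same comparisons.

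Of the 4 genes for titin, the thick filament and the M band, 1 rose in anti-RGMb against isotype mice and 2 fell in isotype against saline mice. Myom1, which crosslinks thick filaments at the M band, rose by 0.54 ± 0.16 (SE, adjusted p = 0.0224) and fell by 0.52 on the log2 scale in isotype against saline mice (adjusted p = 0.0165). Without anti-RGMb mouse 3, isotype mouse 1 or isotype mouse 3 its rise no longer passed (adjusted p up to 0.0673). Myom2, the related M-protein, differed by 0.56 ± 0.22 (adjusted p = 0.0765) and fell by 0.58 on the log2 scale in isotype mice (adjusted p = 0.0464). Ttn, the giant elastic protein of the sarcomere, differed by 0.46 ± 0.26 (adjusted p = 0.239) and -0.58 ± 0.26 (adjusted p = 0.0887). Mybpc3, heart myosin binding protein C, showed little of the pattern, with 0.14 ± 0.09 (adjusted p = 0.316) and 0.02 ± 0.09 (adjusted p = 0.915).

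Of the 9 genes of the Z disc and of stretch sensing, 3 rose in anti-RGMb against isotype mice and 7 fell in isotype against saline mice. Ankrd1, a nuclear and sarcomeric ankyrin repeat protein induced by stretch, had 835, 654 and 937 in anti-RGMb mice, 318, 774 and 416 in isotype mice and 1424, 883 and 1004 in saline mice of experiment 1. Experiment 2 gave 984, 965 and 1024 in anti-RGMb mice, 508 and 745 in isotype mice and 1329, 1866 and 1637 in saline mice. In experiment 2 the 3 groups lay apart, with anti-RGMb mice between the others. Ankrd1 rose by 0.73 ± 0.19 (SE, adjusted p = 0.00887) in anti-RGMb against isotype mice and was 2.44-fold lower in isotype than in saline mice (-1.29 ± 0.19, adjusted p = 2.67e-05).

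Csrp3, the muscle LIM protein of the Z disc, rose by 0.85 ± 0.28 (SE, adjusted p = 0.0373) in anti-RGMb against isotype mice, and Hspb7, a small heat shock protein of the heart, by 0.72 ± 0.24 (adjusted p = 0.0376). With 1 mouse left out their adjusted p reached 0.098 and 0.0993. In isotype against saline mice Csrp3 fell by 0.80 and Hspb7 by 0.76 on the log2 scale (adjusted p = 0.0325 and 0.0185). Myoz2, a calcineurin-binding Z disc protein, had 154, 73.4 and 218 in anti-RGMb mice, 20.9, 73.4 and 20.4 in isotype mice and 290, 68.7 and 56.7 in saline mice of experiment 1. Isotype mouse 2 was at the level of anti-RGMb mouse 2, and the difference of 1.33 ± 0.50 did not pass (adjusted p = 0.0688). Myoz2 fell by 1.83 on the log2 scale in isotype against saline mice (adjusted p = 0.0076).

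Actn2, the alpha actinin that crosslinks actin at the Z disc, differed by 0.94 ± 0.37 (SE, adjusted p = 0.0811) in anti-RGMb against isotype mice and Tcap, the titin cap protein, by 0.55 ± 0.20 (adjusted p = 0.061). Both fell in isotype against saline mice, Actn2 by 1.04 and Tcap by 0.59 on the log2 scale (adjusted p = 0.0339 and 0.0279). Smpx, a small muscle protein encoded on the X chromosome, differed by 0.56 ± 0.35 (adjusted p = 0.299) and fell by 0.95 on the log2 scale in isotype against saline mice (adjusted p = 0.0433). That call for Smpx was lost in 9 of 17 fits without 1 mouse. Ldb3, a PDZ and LIM protein of the Z disc, differed by 0.23 ± 0.11 (adjusted p = 0.171) and -0.29 ± 0.11 (adjusted p = 0.0533). Fhl2, a LIM-only cofactor also made outside muscle, differed by -0.01 ± 0.09 in anti-RGMb against isotype mice (adjusted p = 0.964) and by -0.05 ± 0.09 in isotype against saline mice (adjusted p = 0.759).

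Of the 6 genes of the calcium store, 0 rose in anti-RGMb against isotype mice (limma, 3 higher at an unadjusted p under 0.05) and 4 fell in isotype against saline mice. Pln, phospholamban, the brake of the calcium pump of the sarcoplasmic reticulum, had 214, 92.2 and 212 in anti-RGMb mice, 25.5, 104 and 25.2 in isotype mice and 306, 69.1 and 74.3 in saline mice of experiment 1. For Pln experiment 2 gave 211, 142 and 290 in anti-RGMb mice, 108 and 213 in isotype mice and 289, 924 and 298 in saline mice. The isotype mice spanned a range wide enough to overlap the anti-RGMb mice in both experiments. Pln differed by 1.27 ± 0.50 (SE, adjusted p = 0.0843) in anti-RGMb against isotype mice and fell by 1.57 on the log2 scale in isotype against saline mice (adjusted p = 0.0207).

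Ryr2, the calcium release channel of heart muscle, differed by 0.45 ± 0.22 (SE, adjusted p = 0.167) in anti-RGMb against isotype mice, and Casq2, the heart calcium buffer calsequestrin, by 0.87 ± 0.31 (adjusted p = 0.0526). In isotype against saline mice Ryr2 fell by 0.65 and Casq2 by 1.06 on the log2 scale (adjusted p = 0.0258 and 0.0117). Hrc, a histidine-rich calcium-binding protein of the store, fell by 0.31 on the log2 scale in isotype mice (adjusted p = 0.0192) and differed by 0.23 ± 0.10 in anti-RGMb against isotype mice (adjusted p = 0.0988). Sln, sarcolipin, another inhibitor of the pump, passed in none of the comparisons, with 0.23 ± 0.18 in anti-RGMb against isotype mice (adjusted p = 0.412). Trdn, triadin, which anchors calsequestrin to the release channel, was also past in none (0.11 ± 0.08, adjusted p = 0.423). In isotype against saline mice Trdn differed by -0.20 ± 0.08 (adjusted p = 0.0695) and Sln by -0.36 ± 0.18 (adjusted p = 0.132). Trdn was the only listed gene with several probe sets, 19 in number. With the mean of all probe sets in place of the brightest, 30 of the 37 genes were lower in isotype against saline mice.

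Of the natriuretic peptides and the potassium channel, 1 of 3 rose in anti-RGMb against isotype mice and 1 of 3 fell in isotype against saline mice, in both cases Kcnj5. Kcnj5, a subunit of the acetylcholine-activated potassium channel of the atria, had 43.6, 33.8 and 48.6 in anti-RGMb mice, 30.7, 31 and 30 in isotype mice and 52.7, 39.4 and 42.6 in saline mice of experiment 1. In experiment 2 Kcnj5 had 162, 163 and 177 in anti-RGMb mice, 128 and 117 in isotype mice and 215, 256 and 222 in saline mice. Isotype mice were lowest without overlap in both experiments, and isotype mouse 2 did not stand out here. The signal was dim, at a median percentile of 19.8 among all genes in isotype mice. Kcnj5 rose by 0.43 ± 0.10 (SE, adjusted p = 0.00474) in anti-RGMb mice, with 0.44 in each experiment. It was 1.64-fold lower in isotype than in saline mice (-0.71 ± 0.10, adjusted p = 2.04e-05).

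Nppa, the atrial natriuretic peptide released by stretched atria, had 81.6, 62.7 and 488 in anti-RGMb mice, 52.2, 57.3 and 54.6 in isotype mice and 90.3, 57 and 54.2 in saline mice of experiment 1. Anti-RGMb mouse 3 alone was high. In experiment 2 Nppa had 169, 152 and 224 in anti-RGMb mice, 187 and 146 in isotype mice and 152, 262 and 156 in saline mice, with all groups overlapping. Its difference was 0.76 ± 0.40 (SE, adjusted p = 0.207) in anti-RGMb against isotype mice, and without anti-RGMb mouse 3 it was 0.25. Nppb, the brain natriuretic peptide made mainly in the ventricles, was flat at 51.7 in all 3 anti-RGMb mice and 48.3 to 51.7 in isotype mice against 51.6 to 56.5 in saline mice of experiment 1. It differed by 0.01 ± 0.06 (adjusted p = 0.93) and -0.06 ± 0.06 (adjusted p = 0.487).

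Of the 6 genes of oxygen and energy supply, 1 rose in anti-RGMb against isotype mice and all 6 fell in isotype against saline mice. Cox8b, the muscle form of a cytochrome oxidase subunit, had 91.8, 80.5 and 138 in anti-RGMb mice, 48.3, 69.3 and 63 in isotype mice and 148, 86.7 and 89.8 in saline mice of experiment 1. Values in experiment 2 were 439, 459 and 528 in anti-RGMb mice, 223 and 230 in isotype mice and 616, 1064 and 604 in saline mice. Isotype mice were lowest in both experiments without overlap. Cox8b rose by 0.87 ± 0.20 (SE, 1.83-fold, adjusted p = 0.00456) in anti-RGMb against isotype mice and was 2.32-fold lower in isotype than in saline mice (-1.21 ± 0.20, adjusted p = 0.00011).

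The other muscle forms of cytochrome oxidase, Cox7a1 and Cox6a2, differed by 0.38 ± 0.18 (SE, adjusted p = 0.155) and 0.37 ± 0.15 (adjusted p = 0.0944) in anti-RGMb against isotype mice. In isotype against saline mice Cox7a1 fell by 0.72 and Cox6a2 by 0.51 on the log2 scale (adjusted p = 0.00389 and 0.0111). Their widely expressed counterparts Cox8a, Cox7a2 and Cox6a1, named after their values were seen, did not pass in either comparison, with -0.12, -0.17 and -0.11 in anti-RGMb against isotype mice and 0.16, 0.14 and 0.06 in isotype against saline mice. Mb, the oxygen-binding myoglobin, and Ckm, the muscle creatine kinase, differed by 0.57 ± 0.21 (adjusted p = 0.063) and 0.54 ± 0.21 (adjusted p = 0.0716) in anti-RGMb against isotype mice. Mb fell by 0.89 and Ckm by 0.88 on the log2 scale in isotype against saline mice (adjusted p = 0.00246 and 0.00241). Ckmt2, the mitochondrial creatine kinase of striated muscle, fell by 0.99 on the log2 scale in isotype mice (adjusted p = 0.0223) and differed by 0.79 ± 0.32 in anti-RGMb against isotype mice (adjusted p = 0.0938).

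The 37 genes varied together from mouse to mouse within groups. After subtraction of the mean of each group and experiment, the median Pearson's r of the 666 pairs over 17 mice was 0.79 and the median Spearman's rho was 0.77, and 46.7% of pairs were above 0.8. Within experiment 1 the median r was 0.86 and within experiment 2 it was 0.81. Without saline mice 1 and 2-2, the mice farthest from the middle, it was 0.69. These values are descriptions without a test, and pairs share the same arrays and mice. The SD between mice of a group and experiment had a median of 0.41 log2 units, against 0.12 over all genes, and 36 of 37 genes were above that median.

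The genes that followed the others most closely were Actn2 and Ryr2, each with r = 0.99 against the mean of the other 36. Myh6 had the widest spread, with an SD of 0.97 and r = 0.95. Myh7 did not follow, with r = -0.06 and an SD of 0.14, and the value was -0.55 in experiment 1 and 0.87 in experiment 2. Nppb (0.52), Trdn (0.50), Nppa (0.61), Cox6a2 (0.62) and Myl3 (0.64) followed loosely. For Cox6a2 the value was 0.92 in experiment 1 and -0.23 in experiment 2, while for the other 4 it was 0.52 to 0.60 in experiment 1 and 0.57 to 0.91 in experiment 2. Kcnj5 and Fhl2 followed (0.81 and 0.85) with a narrow SD of 0.16 each. Kcnj5, Myh7 and Actc1, with SDs of 0.16, 0.14 and 0.29, passed in both anti-RGMb against isotype and isotype against saline mice. Myoz2, Pln and Tnni3, with SDs of 0.90, 0.93 and 0.77, missed the threshold in anti-RGMb against isotype mice with larger log2 differences. Other genes went the other way. Myh6, Myl7, Myl4 and Tnnt2, with SDs of 0.97, 0.87, 0.86 and 0.82, passed in both comparisons. Nppb, Trdn, Fhl2 and Mybpc3, with SDs of 0.1, 0.15, 0.16 and 0.16, passed in neither. A link between spread and calls was not tested.

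**Figure D4:**
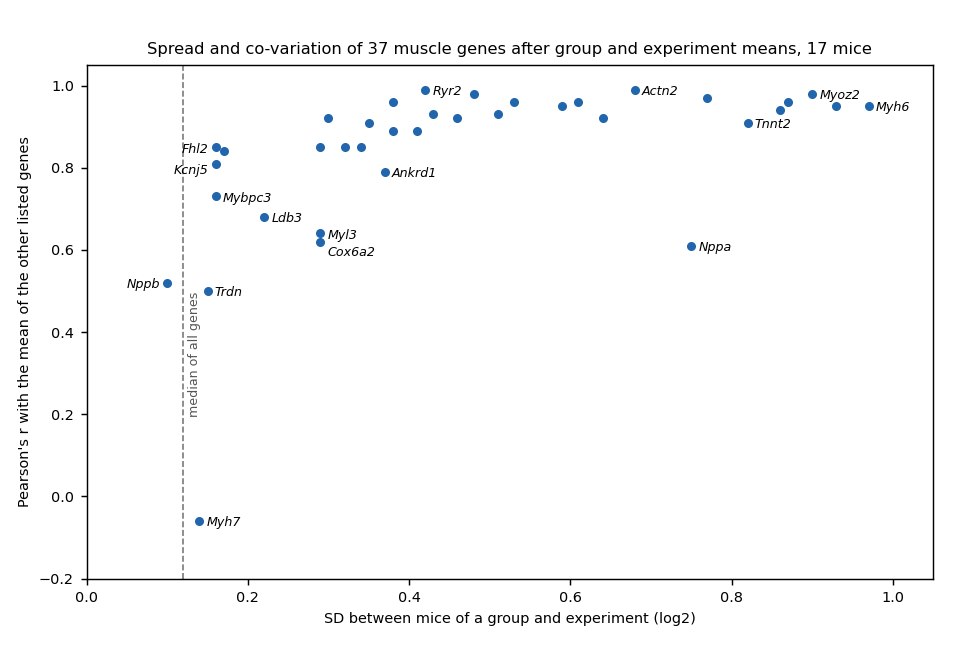
Each point is 1 of the 37 genes: the SD between mice of a group and experiment in log2 units (horizontal) and Pearson's r with the mean of the other listed genes over 17 mice (vertical), after removal of group and experiment means. The dashed line is the median SD of all genes, 0.12. Myh7 stands alone at r = -0.06.

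The 10 other genes most like the mean of the list over the same 17 mice were Mybphl, Srl, Eno3, Nrap, Scgb3a1, Tbx20, Xirp2, Apobec2, Txlnb and Tmem182, with r from 0.983 for Mybphl to 0.936 for Tmem182. Spearman's rho for these 10 was 0.86 to 0.97. Mybphl is a myosin binding protein found in atria, Srl encodes sarcalumenin of the calcium store, Eno3 the muscle enolase, and Tbx20 a heart transcription factor. Scgb3a1 differs in kind, being a secretoglobin of the airway epithelium. It had 528, 180 and 2115 in anti-RGMb mice, 165, 1502 and 129 in isotype mice and 926, 124 and 120 in saline mice of experiment 1. Values in experiment 2 were 4003, 1594 and 3774 in anti-RGMb mice, 2228 and 3471 in isotype mice and 1034, 4508 and 1577 in saline mice. Isotype mouse 2, saline mouse 1 and saline mouse 2-2, the mice that stood apart over the muscle genes, each had the highest value of their group in their experiment. Its r with the mean of the list was 0.946, 0.97 in experiment 1, 0.93 in experiment 2 and 0.95 without saline mice 1 and 2-2. Scgb3a1 passed in no comparison (adjusted p = 0.676 in anti-RGMb against isotype mice and 0.714 in isotype against saline mice).

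Of 53 other heart genes measured, 19 rose and 1 fell in anti-RGMb against isotype mice, with a median log2 difference of 0.23, and 3 rose and 28 fell in isotype against saline mice, with a median of -0.25. In anti-RGMb against saline mice 0 rose and 1 fell. Many of these genes are also made by other lung cells. By brightness, the first 3 contractile genes were Nebl, Tpm1 and Pdlim5, and Nebl, an actin-binding Z disc protein, rose by 0.52 (adjusted p = 6.1e-05) in anti-RGMb against isotype mice and fell by 0.65 in isotype against saline mice. Tpm1 and Pdlim5 did not pass in anti-RGMb against isotype mice (0.13 and 0.15). Of the channel genes Atp2a2, Gja5 and Kcnq1, the calcium pump Atp2a2 did not pass (0.02), while Gja5, a connexin of atria and arteries, rose by 0.39 and Kcnq1 by 0.16 (adjusted p = 0.00321 and 0.0219). The transcription factors Mef2a, Gata6 and Tbx5 rose by 0.18, 0.34 and 0.35 in anti-RGMb against isotype mice. Of the metabolic genes, Ldhb, the heart lactate dehydrogenase subunit, rose by 0.37 (adjusted p = 0.000807), and Fabp3 and Adssl1 did not pass in anti-RGMb against isotype mice. In isotype against saline mice the 3 that rose were Adssl1, Slc8a1 and Corin, and the 1 that fell in anti-RGMb against saline mice was Tmod1.

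Slc8a1, Tmod1, Corin and Myl2 are named here after their values were seen. Corin, the protease that activates atrial natriuretic peptide, was the 1 gene that fell in anti-RGMb against isotype mice (-1.22 ± 0.16, SE, adjusted p = 3.6e-05), and it rose by 1.57 ± 0.16 in isotype against saline mice. Myl2, the regulatory light chain of ventricles and slow muscle and the counterpart of Myl7, lay at 30.7 to 32 in anti-RGMb mice, 32 to 35 in isotype mice and 32 to 32.5 in saline mice of experiment 1. Its differences were -0.01 ± 0.07 (adjusted p = 0.939) in anti-RGMb against isotype mice and 0.04 ± 0.07 (adjusted p = 0.745) in isotype against saline mice. The signal of Myl2 was dim, against array medians of 120.5 to 124.8 in experiment 1, and mice of every group shared the value 32. A difference in Myl2 could be missed at this level.

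Of 21 skeletal muscle genes, 1 rose and 1 fell in anti-RGMb against isotype mice, and 1 rose and 3 fell in isotype against saline mice. In anti-RGMb against isotype mice Casq1 rose and Neb fell, and in isotype against saline mice Neb rose and Casq1, Atp2a1 and Tnnt3 fell, of which Casq1, Neb and Atp2a1 are named after their values were seen. The brightest 3 were Acta1, Tnni2 and Tnnt3, with 0.23, 0.14 and 0.16 in anti-RGMb against isotype mice, none past the threshold. Of 18 smooth muscle and pericyte genes, 8 rose and 0 fell in anti-RGMb against isotype mice, and 1 rose and 9 fell in isotype against saline mice. The 1 that rose in isotype against saline mice was Rgs5 of pericytes, named after its value was seen. Smooth muscle actin, Acta2, the brightest, did not pass (0 and 0.02). Itga8, an integrin chain, rose by 0.78 in anti-RGMb against isotype mice (adjusted p = 0.000198) and fell by 1.00 on the log2 scale in isotype against saline mice. Mylk, the myosin light chain kinase of smooth muscle, differed by 0.20 in anti-RGMb against isotype mice (adjusted p = 0.0511) and fell by 0.29 on the log2 scale in isotype against saline mice. After removal of group and experiment means, the mean of the smooth muscle list had r = -0.05 with the mean of the 37 genes, and that of the skeletal list 0.39. The means of the other heart genes had r = 0.81 for the contractile list, 0.93 for calcium and channels, 0.69 for transcription factors and 0.93 for metabolism. Single genes of these 4 lists followed less closely, with a median r of 0.31, 0.32, 0.05 and 0.59 and a range over all 4 from -0.53 to 0.97.

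Of 26 relatives of the listed genes that other cells use, 10 rose and 2 fell in anti-RGMb against isotype mice, 2 rose and 11 fell in isotype against saline mice, and 2 rose and 0 fell in anti-RGMb against saline mice. The pair was Ckmt1, the mitochondrial creatine kinase of non-muscle cells, and Fhl3 each time, both named after their values were seen. Ckmt1 differed by -0.56, 0.86 and 0.30 in these comparisons and Fhl3 by -0.31, 0.68 and 0.37. Of the brightest, Actb, the cytoplasmic actin, differed by -0.02 and 0.05 in anti-RGMb against isotype and isotype against saline mice and passed in neither. Csrp1 rose by 0.16 and Myl12b, a non-muscle myosin light chain, by 0.21 in anti-RGMb against isotype mice (adjusted p = 0.012 and 0.00317), and they fell by 0.24 and 0.34 on the log2 scale in isotype against saline mice.

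Of 9 white fat genes, 3 rose and 0 fell in anti-RGMb against isotype mice and 1 rose and 2 fell in isotype against saline mice. Their mean had r = 0.77 with that of the 37 genes. The counts in isotype against saline mice were near the shares of all genes, 14.6% higher and 21.0% lower. The summed intensity of the white fat genes was 1170 to 1713 in anti-RGMb mice, 995 to 1195 in isotype mice and 1133 to 1268 in saline mice of experiment 1. In experiment 2 it was 4653 to 4921 in anti-RGMb mice, 4445 to 4599 in isotype mice and 4544 to 5524 in saline mice. The brightest were Lipe, Pparg and Cidec, with 0.36, -0.21 and 0.70 in anti-RGMb against isotype mice and -0.18, 0.41 and -0.83 in isotype against saline mice. Lipe and Cidec were called in anti-RGMb against isotype mice and Pparg and Cidec in isotype against saline mice, as was Plin4 in both, named after its value was seen. None of the brown fat genes, 7 in number, passed in anti-RGMb against isotype mice by limma (1 higher at an unadjusted p under 0.05). Prdm16, the brightest, differed by 0.15 there (adjusted p = 0.0635) and was the 1 that fell in isotype against saline mice, by 0.29 on the log2 scale. Ppargc1a (-0.01 and 0.03) and Otop1 (0.07 and -0.04) passed in neither. With the mean of the 37 genes over the 17 mice, the mean of the alveolar epithelium list had r = -0.52, that of the erythroid list -0.32, that of the non-muscle relatives -0.24 and that of the immune list -0.18. The value was -0.06 for the endothelium list, 0.13 for the mesothelium list and 0.33 for the brown fat list. The part of fat or other tissue taken with the lung in these differences was not tested.

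**Figure D5:**
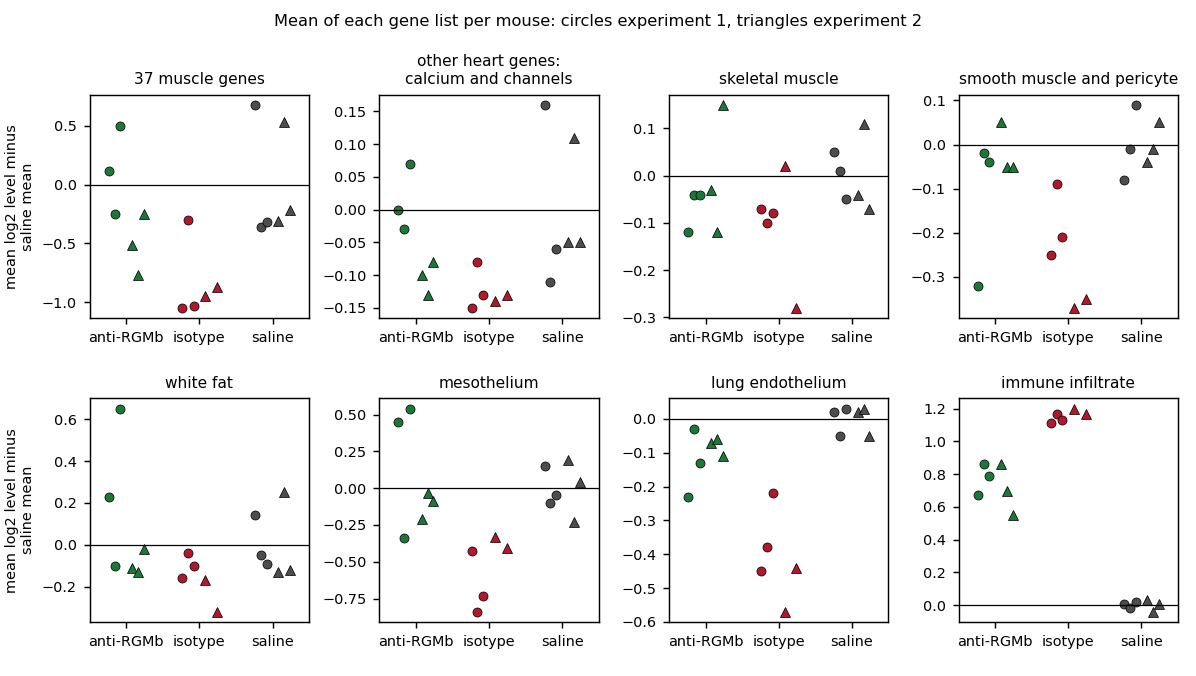
Mean log2 level of 8 gene lists minus the saline mean of the same experiment, per mouse, in anti-RGMb, isotype and saline mice (circles experiment 1, triangles experiment 2, vertical scales differ between panels). Saline mice 1 and 2-2 lie high for the 37 muscle genes, for other heart genes and for white fat, while the immune list separates the 3 groups with isotype mice highest.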

How the data were processed

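Lung RNA of 17 mice was labelled with biotin and hybridised to Affymetrix Mouse Gene 1.0 ST arrays, per the labels' protocols. The deposited values are linear intensity per probe set, made by the authors with RMA per the submitters' processing notes, with a version not given in the sources used here. Of 24679 probe sets, 21354 carried 1 gene symbol, 1275 several and 2050 none, and the brightest of the 893 genes with several was kept. Exactly equal values between arrays of an experiment occurred in 51.0% of genes in experiment 1 and 32.5% in experiment 2, and in 10 and 6 of the 37 genes.

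The log2 of each value was taken with no constant. Group means plus an experiment term were fitted with limma 3.58.1 in R 4.3.3 (eBayes, prior degrees of freedom 4.32), with Benjamini-Hochberg adjustment over 19751 genes and a threshold of 0.05, 2-sided. Interactions came from a second model with a separate mean for each group in each experiment. The script was tested on simulated data. The 37 genes and all other lists were chosen with earlier results of these data known. Named genes are all 37, the 3 brightest of each other list, the 10 most like the list's mean and the genes nearest each threshold. Mice of equal number were unpaired, since residuals of 16 pairs correlated at -0.6 to 0.3, over 0.1 in 3. Scalings, a constant, filters, array weights, single experiments, a replicate block and mice left out were the alternatives.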

Additional observations from a re-analysis of the deposited data

Results flagged for a closer look

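In groups of 5 or 6 mice, 1 mouse lay far from the others for 6 of the 111 combinations of gene and group, where chance gives about 5.5 (1 in 20). All values are log2 levels above the saline mean of the same experiment. Nppa of anti-RGMb mouse 3 was at 2.9, with the next anti-RGMb mouse at 0.32. Actc1 of anti-RGMb mouse 3 was at 0.38, with the next at -0.24. Trdn of anti-RGMb mouse 3-2 was at 0.21, with the next at -0.08. Myl7 of isotype mouse 2 was at -0.57, with the next at -2.38, and Tnnc1 of the same mouse at -0.39, with the next at -0.78. Ldb3 of isotype mouse 2-2 was at -0.53 and the next lowest isotype mouse at -0.24.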

How the results depend on the processing

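The precision of every value is limited by 17 arrays, by the wide spread of these genes between mice and by dim signals. Without an experiment term, the 12 higher genes in anti-RGMb against isotype mice became 0 by limma (7 at an unadjusted p under 0.05). In experiment 1 alone the count was 0 by limma (27 at an unadjusted p under 0.05). Over all 19751 genes the higher calls went from 2199 to 0 and 503 in these settings. The count of listed genes was 5 in experiment 2 alone and 7 with mouse number as replicate block, against 1290 and 1839 of all genes. It was 7 to 21 with 1 mouse left out. It was 30 without the 3 mice that stood apart, which were picked by the mean of the listed genes. Without an experiment term, the 29 lower genes in isotype against saline mice became 0 by limma (12 at an unadjusted p under 0.05). The count was 6 in experiment 1 alone and 15 in experiment 2 alone. It was 18 without the 3 mice and 16 to 31 with 1 mouse left out. Of all genes, 4156 were lower in the main fit, 1 without the term, 2448 in experiment 1 alone and 2442 in experiment 2 alone. In anti-RGMb against saline mice the count of 0 lower genes became 1 without the dimmest 40% (Ankrd1) and in experiment 2 alone (Kcnj5). It was 0 to 2 with 1 mouse left out. Lower calls over all genes were 442 of 19751, 680 of 11851 without the dimmest 40% and 40 in experiment 2 alone. Under the scalings, the constant of 32, array weights and the trend and robust prior, the first count was 8 to 13 and the second 21 to 30. Over all genes the same counts were 2160 to 2532 and 4126 to 4902. No direction turned in a called gene under any of these settings. The replicate block changed no other count by over 1.5 times. The causes of these changes were not tested.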
